A study of Rattus norvegicus with 42 samples.

Results

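The genes of oxidative phosphorylation were described in rat retina, split into nuclear genes and genes of the mitochondrial genome and grouped by respiratory complex. Members were chosen by name, as the nuclear subunit families of complexes I to V with the complex I assembly factors named Ndufaf, cytochrome c1 and cytochrome c, and the Mt- genes for subunits. The rule took 107 of the 32623 genes in the file, 94 nuclear and 13 mitochondrial, and left out 6 further names that end in an added number. Adult rats were exposed to bright light of 15000 lux for 24 h or not exposed, and an intravitreal injection of 1 mM nanoceria (cerium oxide nanoparticles) or of its vehicle was given in some groups. PolyA RNA of whole retina was sequenced as paired 150 bp reads, and 31 libraries, of 42 samples with labels, are described here. These were 7 light damage libraries (light, no injection) and 5 control libraries (no treatment), 5 vehicle plus light and 5 vehicle libraries, and 5 nanoceria plus light and 4 nanoceria libraries. The strain, the sex, a more exact age and the delay between injection, light and tissue collection are not given in the labels, which call the samples biological replicates without naming single animals.

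The respiratory chain passes electrons from NADH through complex I, or from succinate through complex II, to ubiquinone, complex III, cytochrome c and the oxygen-consuming complex IV, and complex V makes ATP from the proton gradient that complexes I, III and IV build. A few core subunits are made in the mitochondrion from its own genome, all others are encoded in the nucleus and imported, and complex II is nuclear only. In the retina, mitochondria are packed into the inner segments of photoreceptors, whose ion pumping in darkness is a large consumer of ATP.

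Libraries held 25158407 counts (light damage 1) to 182162368 counts (vehicle plus light 2). Light damage 1 also had the lowest factor from TMM (trimmed mean of M-values) scaling, 0.812, with 0.911 in vehicle 3 as the next lowest. Of 14 rod marker genes in the file, 13 fell with light, and their summed level was 5446 to 23901 CPM (read counts scaled to library size) over the 17 light libraries, against 34447 to 65629 CPM over the 14 libraries without light. Transcripts typical of skeletal muscle were present in every library, with the muscle creatine kinase Ckm at 116 to 823 CPM. The light damage libraries 4 and 7, and the vehicle libraries 4 and 7, were far more alike than other replicate pairs (chi-square per degree of freedom 10.5 and 4.40, against 88.9 to 1778 elsewhere). They differed beyond counting noise, which does not show that they came from different animals. The main fit kept them as separate libraries. Counts of calls with each pair summed are given below for the mean of the injection states, light damage against control and vehicle against control. The values of 1430 to 1778 were those of light damage 1 with each other light damage library, and no other pair exceeded 583.

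Most nuclear genes of oxidative phosphorylation were lower after light, by a small amount. No mitochondrially encoded gene passed edgeR's test in the mean of the injection states, and 3 did in light damage against control, described below. Averaged over the 3 injection states (no injection, vehicle, nanoceria), 49 of 87 nuclear members that passed the filter on low counts fell and 2 rose by edgeR's quasi-likelihood test at an adjusted p under 0.05. Over all 18094 genes tested, 16.6% fell and 20.5% rose. The median change of the nuclear members was -0.15 on the log2 scale, a decrease of 9.93%, beside a median of 0.02 over all genes tested. Among genes of at least medium level (mean log2 CPM of 4 or more), 47 of 78 nuclear members, or 60.3%, were lower, against 20.5% of 9514 genes. Among the same genes, 42.3% of the nuclear members were lower without injection, against 13.9% of all, but 8.97% after vehicle, against 9.31% of all, and 1.28% after nanoceria, against 7.25% of all. Of the 13 mitochondrial members none was called by edgeR, 2 had an unadjusted p under 0.05, DESeq2 called 2 and limma-voom none, edgeR called 2 with the size factors of DESeq2 or with scaling made without Mt- genes, and their median change was -0.05. Rod transcripts fell in the same libraries, as given above, and their part in the nuclear result was not tested; in bulk tissue, fewer cells of a type and less RNA per cell cannot be told apart. With library size as the only scaling, which moved the median of all genes to 0.09, edgeR called 30 nuclear members lower, all of them among the 49. The calls of Ndufs1, Ndufa5, Ndufaf3, Ndufaf7, Sdha, Sdhb, Uqcrc1, Cox5b, Cox7a2l, Atp5i, Atp5j and Atp5c1, described below, ended under that scaling, and those of Sdhb and Uqcrc1 also with limma-voom. The nuclear median minus that of all genes was -0.17 under each of the 4 scalings tried. A change of scaling shifts all genes by nearly the same amount, so this difference could hardly move and is no test of the result.

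**Figure D1:**
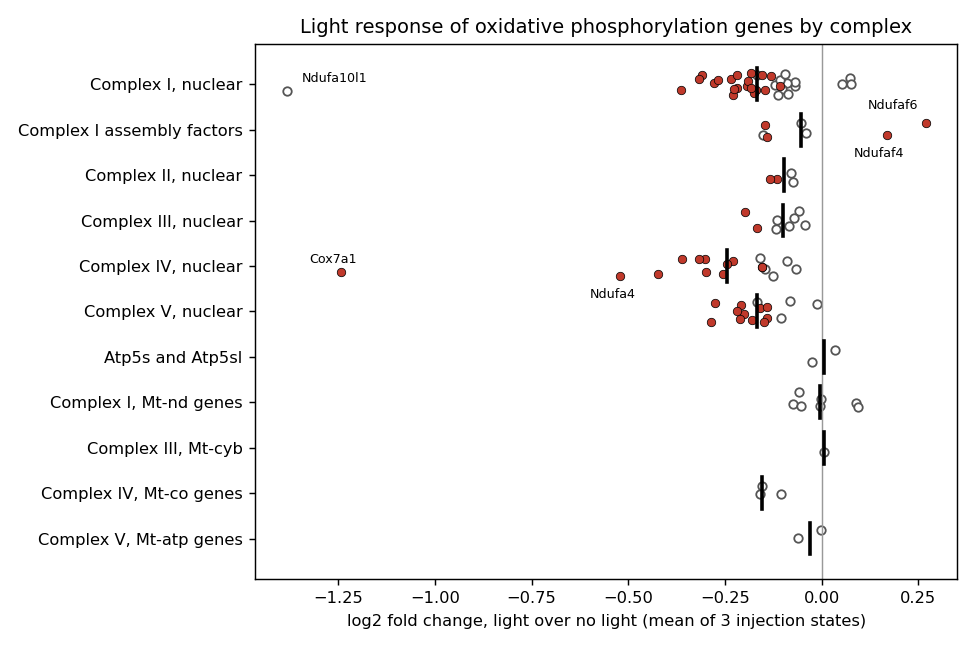
Each point is 1 member that passed the filter, placed by its log2 fold change with light (light over no light, mean of 3 injection states) in the row of its complex; filled points passed the edgeR test at an adjusted p under 0.05, open points did not, and bars mark row medians. Nuclear rows of complexes I, IV and V have medians of -0.17, -0.24 and -0.17. Those of complexes II and III are at -0.10 each and that of the complex I assembly factors is at -0.05. The Mt-nd row has a median of -0.00 and the row of the 3 mitochondrial complex IV genes has -0.16.

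Complex I, the NADH dehydrogenase, had 20 of 34 tested nuclear members lower and none higher, with a median of -0.17. The largest called decreases were in accessory subunits, which surround the catalytic core: Ndufb11 changed by -0.36 ± 0.06 (log2, SE; edgeR adjusted p = 7.40e-06) and Ndufb6 by -0.32 ± 0.06 (edgeR adjusted p = 4.98e-05). Ndufa10l1, which lay lower but was not called, is described below. Ndufb11 had 77.4, 82.7 and 92.5 CPM (lowest, median, highest) in light damage, against 91.5, 97.1, 106, 127 and 136 CPM in control. It had 67.0, 77.9, 79.5, 84.4 and 86.7 CPM in vehicle plus light, against 88.0, 89.7, 109, 109.7 and 118 CPM in vehicle, and 77.4, 80.9, 84.1, 85.9 and 86.4 CPM in nanoceria plus light, against 95.03, 96.3, 96.4 and 121 CPM in nanoceria. Light and no-light libraries thus did not overlap after either injection and overlapped by 1 library on each side without injection.

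Core subunits of complex I were also among the members that fell. Ndufs1, which carries iron-sulfur clusters of the electron path, changed by -0.11 ± 0.04 (edgeR adjusted p = 0.0164). Ndufv1, the NADH-binding subunit, fell by 0.18 on the log2 scale, and Ndufs7 and Ndufs8, the last iron-sulfur proteins before the quinone, fell by 0.19 and 0.22. Ndufa5 of the peripheral arm changed by -0.13 ± 0.05 (edgeR adjusted p = 0.0275), a call that was lost without control 1, vehicle 1 or nanoceria 5. Over all alternatives, which include edgeR, DESeq2 and limma-voom fits, its adjusted p was 0.00525 to 0.378.

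The assembly factors of complex I that the name rule took, which build the complex but are no part of it, were called in both directions. Of 7 tested, 2 rose and 2 fell, beside 20.5% and 16.6% of all genes, and 5 lay below zero. With so few members, these counts are not set apart from the shares of all genes. Ndufaf4 changed by 0.17 ± 0.03 (edgeR adjusted p = 1.36e-04): it had 26.3, 28.3 and 29.6 CPM (lowest, median, highest) in light damage and 22.2, 22.8, 23.7, 26.7 and 26.9 CPM in control, ranges that overlap. Ndufaf6 changed by 0.27 ± 0.08 (edgeR adjusted p = 0.00850) at a low level, 6.28 to 9.45 CPM over the 3 light groups and 4.2 to 9.15 CPM over the groups without light. Both kept the call under every alternative fit. Ndufaf7, a methyltransferase that modifies a core subunit, changed by -0.14 ± 0.04 (edgeR adjusted p = 0.00991), and Ndufaf3 by -0.15 ± 0.05 (edgeR adjusted p = 0.0326). The call of Ndufaf3 was lost without any 1 of control 1, vehicle 2, vehicle 3, nanoceria 2, nanoceria 5, vehicle plus light 1, nanoceria plus light 3 or nanoceria plus light 4. Its adjusted p was up to 0.308 over the alternatives, which include edgeR, DESeq2 and limma-voom fits.

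Complex II, succinate dehydrogenase, links the chain to the citric acid cycle. Its 2 catalytic subunits fell slightly: the flavoprotein Sdha changed by -0.12 ± 0.04 (edgeR adjusted p = 0.0127) and the iron-sulfur protein Sdhb by -0.13 ± 0.05 (edgeR adjusted p = 0.0209). The membrane anchors Sdhc and Sdhd were at -0.07 ± 0.04 and -0.08 ± 0.04 and did not pass (edgeR adjusted p = 0.180 and 0.127). Sdha had 226, 239 and 248 CPM (lowest, median, highest) in light damage and 218, 256, 268, 278 and 288 CPM in control, ranges that overlap.

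In complex III, ubiquinol-cytochrome c reductase, 2 of 8 nuclear members fell, a count not set apart from the 16.6% of all genes. The hinge protein Uqcrh changed by -0.20 ± 0.06 (edgeR adjusted p = 0.00651) and the core protein Uqcrc1 by -0.17 ± 0.05 (edgeR adjusted p = 0.0120). The haem-bearing cytochrome c1, Cyc1, was at -0.09 ± 0.04 and the Rieske iron-sulfur protein Uqcrfs1 at -0.12 ± 0.05, and neither passed (edgeR adjusted p = 0.130 and 0.0990). Uqcrh had 41.3, 43.9 and 51.5 CPM (lowest, median, highest) in light damage and 47.3, 51.9, 54.6, 57.4 and 63.7 CPM in control, ranges that overlap.

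Complex IV, cytochrome c oxidase, had the lowest median of the complexes, -0.24, with 12 of 17 nuclear members lower and none higher. Ndufa4, once assigned to complex I and now counted as a subunit of cytochrome c oxidase, changed by -0.52 ± 0.07 (edgeR adjusted p = 1.12e-06), the smallest adjusted p among the members. It had 171, 184 and 223 CPM (lowest, median, highest) in light damage, against 219, 231, 259, 317 and 391 CPM in control. It had 155, 177, 181, 184 and 197 CPM in vehicle plus light, against 228, 230, 270, 276 and 286 CPM in vehicle. After nanoceria it had 181, 183, 188, 199.5 and 219 CPM with light, against 229, 239, 263 and 337 CPM without light. The 2 conditions did not overlap after either injection, and without injection only light damage 2 lay above control 6. Its paralog Ndufa4l2, known as a target of hypoxia signalling, was at -0.15 ± 0.12 and did not pass (edgeR adjusted p = 0.365).

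Of the complex IV subunits with a heart, muscle or lung form, the widely expressed Cox4i1, Cox6a1, Cox7a2 and Cox8a fell. Cox4i1, the regulatory subunit IV found in most tissues, changed by -0.23 ± 0.06 (edgeR adjusted p = 0.00445). Cox6a1 changed by -0.24 ± 0.05, Cox7a2 by -0.30 ± 0.08 and Cox8a by -0.26 ± 0.06 (edgeR adjusted p = 5.14e-04, 0.00460 and 8.65e-04). Cox7c and Cox6c, small membrane subunits without a muscle form, changed by -0.32 ± 0.07 and -0.30 ± 0.07, and the smallest called decreases of the complex were those of Cox5b, which binds zinc, and of Cox7a2l, which helps complexes III and IV associate, at -0.15 ± 0.05 for each.

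Cox4i1 had 228, 252 and 285 CPM (lowest, median, highest) in light damage and 267, 275, 302, 320.0 and 362 CPM in control. It had 182, 215, 231, 246 and 286 CPM in vehicle plus light and 224, 233, 278, 298 and 314 CPM in vehicle, and 221, 226, 249, 258 and 263 CPM in nanoceria plus light and 261, 261, 265 and 333 CPM in nanoceria. Its ranges overlapped in every injection state, with the light libraries mostly at the low side.

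The other isoforms did not share one pattern. Cox4i2, the subunit IV form best known from lung and from pericytes, changed by -0.42 ± 0.12 (edgeR adjusted p = 0.00784) and had 14.2, 17.5 and 19.8 CPM (lowest, median, highest) in light damage, against 14.98, 23.0, 29.3, 31.2 and 37.5 CPM in control. Of 9 tested vascular markers 4 were lower and 1, Flt1 at 0.85 ± 0.08, was higher in the same fit, beside 16.6% and 20.5% of all genes. None was at 0, and their summed level was 581 to 776 CPM in light damage and 684 to 974 CPM in control. The part of these markers in the Cox4i2 result was not tested. The heart and muscle forms Cox6a2 and Cox8b were at -0.07 ± 0.26 and -0.16 ± 0.23 and did not pass (edgeR adjusted p = 0.874 and 0.632). Both varied widely within groups: Cox6a2 had 41.6 CPM in nanoceria plus light 1, the library with the most Ckm (823 CPM), and 6.76 CPM in vehicle plus light 6, the library with the least (116 CPM). The order was not the same throughout, since control 4 had the highest Cox6a2 at 41.8 CPM with 511 CPM of Ckm and vehicle plus light 3 had 29.0 CPM with 704 CPM of Ckm. Cox7a1, the muscle form of subunit VIIa, changed by -1.24 ± 0.36 (edgeR adjusted p = 0.00740) at a level of at most 0.528 CPM in any library, with 0 counts in 2 light libraries, and Cox6b2, a testis form, by -0.36 ± 0.11 (edgeR adjusted p = 0.0103) at 0.992 to 2.7 CPM. The 9 muscle markers, a list made after the data had been seen, had a median log2 fold change of -0.17 with light, and their part in the results of these isoforms was not tested.

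**Figure D2:**
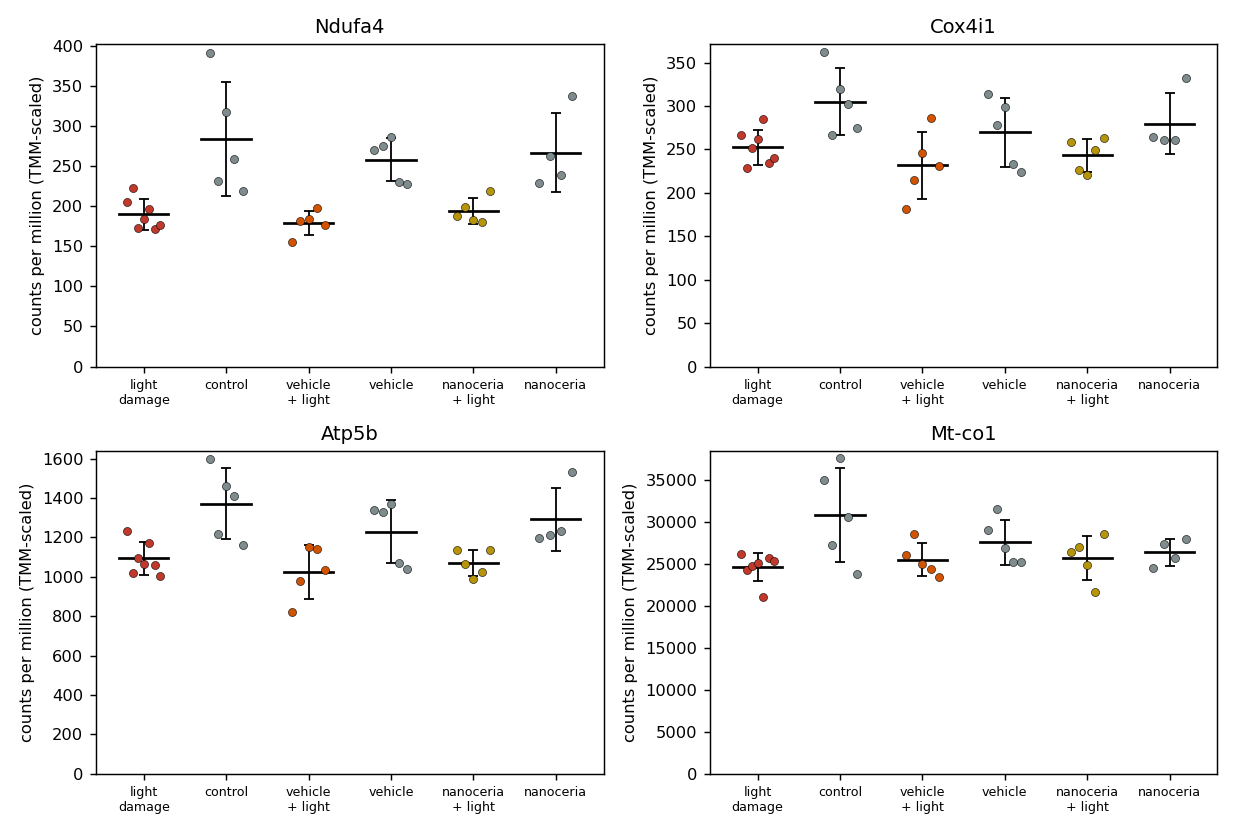
Each point is 1 library, in CPM scaled by TMM (trimmed mean of M-values), for Ndufa4, Cox4i1, Atp5b and Mt-co1 in the 6 groups; lines and bars are the group mean and SD. Ndufa4 sits between 155 and 223 CPM in the light groups and between 219 and 391 CPM in the groups without light, and overlaps only without injection. Cox4i1 and Mt-co1 overlap in every injection state, and Atp5b in all but the nanoceria pair.

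Complex V, the ATP synthase, had 11 of 15 nuclear members lower and none higher, with a median of -0.17. Atp5b, the catalytic beta subunit, changed by -0.29 ± 0.06 (edgeR adjusted p = 3.20e-04), and Atp5a1, its alpha partner, by -0.20 ± 0.04 (edgeR adjusted p = 5.75e-04). Atp5i, subunit e of the membrane part, changed by -0.27 ± 0.08 and Atp5f1, the b subunit of the stalk, by -0.16 ± 0.03 (edgeR adjusted p = 0.00502 and 2.09e-04). The smallest called decreases were those of Atp5c1, the rotating gamma subunit, and Atp5j, coupling factor 6, at -0.14 ± 0.04 for each. Of the 3 genes for the proton-carrying c ring, Atp5g3 fell by 0.21 on the log2 scale, while Atp5g1 was at -0.17 ± 0.08 and Atp5g2 at -0.01 ± 0.04, and neither passed (edgeR adjusted p = 0.111 and 0.855).

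Atp5b had 1003, 1066 and 1232 CPM (lowest, median, highest) in light damage and 1160, 1217, 1411, 1463 and 1599 CPM in control. It had 819, 976, 1034, 1144 and 1150 CPM in vehicle plus light and 1039, 1069, 1327, 1339 and 1369 CPM in vehicle, and 991, 1023, 1067, 1136 and 1138 CPM in nanoceria plus light and 1198, 1211, 1230 and 1533 CPM in nanoceria. Only the nanoceria pair of groups did not overlap. Atp5s and Atp5sl, which carry the Atp5 name but are not subunits of the rotary enzyme, were at -0.02 ± 0.05 and 0.04 ± 0.03 and did not pass (edgeR adjusted p = 0.765 and 0.340).

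Promoters of the nuclear members held binding motifs of 2 factors known for respiratory genes in a larger share than all promoters of the same RefSeq table. Those promoters were not matched to the members for expression or base composition, so the larger share is not shown to be particular to respiratory genes. Windows from 250 bases before to 50 after the start (RefSeq, GRCr8, a build other than the rn6 of the counts) were found for 81 of the 94 nuclear members, 66 by symbol and 15 by an older symbol. The core of NRF1, GCGCATGCG on either strand, was in 9 of them, 11.1%, against 455 of 27457 promoters, 1.66%. The ETS core bound by the GABP factor, CCGGAAG on either strand, was in 21, 25.9% (2 held both), against 9.22% of all promoters. Overlap between the 2 motifs was not excluded in the search. Of members lower with light 4 of 44 held the NRF1 core and 15 the ETS core, and of the other matched members 5 of 37 and 6. The other matched members include some without a test of light: Cycs, Ndufa13, Ndufs6, Ndufb4l1, Cox7b2 and Cox8c. Of these, Cycs held the NRF1 core and Ndufa13 the ETS core. A match is a description of the letters and not a bound site. Windows of 3 members that fell are shown because they differ in these motifs, with matches in capitals and the strand of the gene as printed: Cox4i1 (chr19:65630133-65630432, plus strand) with 2 ETS cores that read on the opposite strand, Uqcrc1 (chr8:118467973-118468272, plus strand) with 1 NRF1 core, and Ndufa4 (chr4:40975510-40975809, minus strand) with neither.
Cox4i1: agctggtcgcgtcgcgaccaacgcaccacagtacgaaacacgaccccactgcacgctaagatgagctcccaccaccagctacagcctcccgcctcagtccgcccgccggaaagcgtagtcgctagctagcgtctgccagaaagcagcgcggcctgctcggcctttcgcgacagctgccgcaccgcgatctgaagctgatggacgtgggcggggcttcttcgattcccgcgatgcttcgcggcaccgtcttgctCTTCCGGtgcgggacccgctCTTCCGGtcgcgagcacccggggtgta
Uqcrc1: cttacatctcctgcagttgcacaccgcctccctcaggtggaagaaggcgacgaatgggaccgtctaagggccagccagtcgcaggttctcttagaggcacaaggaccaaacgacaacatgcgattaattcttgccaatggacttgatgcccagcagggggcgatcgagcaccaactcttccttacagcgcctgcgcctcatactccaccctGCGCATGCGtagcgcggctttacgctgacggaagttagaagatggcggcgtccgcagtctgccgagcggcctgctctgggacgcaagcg
Ndufa4: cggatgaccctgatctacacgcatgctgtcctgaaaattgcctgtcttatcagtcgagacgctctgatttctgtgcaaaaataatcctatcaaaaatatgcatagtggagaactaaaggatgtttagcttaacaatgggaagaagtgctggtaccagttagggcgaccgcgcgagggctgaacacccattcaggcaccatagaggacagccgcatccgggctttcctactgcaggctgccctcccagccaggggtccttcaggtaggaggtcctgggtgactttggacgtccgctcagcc

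The mitochondrial genome encodes 7 subunits of complex I, 1 of complex III, 3 of complex IV and 2 of complex V, and all 13 were measured. Averaged over the injection states, the complex I genes lay around zero: Mt-nd5, Mt-nd3 and Mt-nd6 were at -0.07 ± 0.10, -0.06 ± 0.07 and -0.05 ± 0.09 (log2 fold change, SE), Mt-nd4 and Mt-nd4l at -0.00 ± 0.08 each, and Mt-nd1 and Mt-nd2 at 0.09 ± 0.07 and 0.09 ± 0.08. Cytochrome b, Mt-cyb of complex III, was at 0.01 ± 0.07, and Mt-atp6 and Mt-atp8 of the ATP synthase at -0.06 ± 0.06 and -0.00 ± 0.08. The 3 cytochrome oxidase genes were all below zero, with Mt-co1 at -0.16 ± 0.06, Mt-cox3 at -0.16 ± 0.06 and Mt-co2 at -0.10 ± 0.06 (edgeR adjusted p = 0.0536, 0.0508 and 0.199). DESeq2 called Mt-co1 and Mt-cox3, and edgeR called at least 1 of them when control 2 or 6, light damage 1 or 6, vehicle 4 or 7, nanoceria 1, vehicle plus light 1 or 2, or nanoceria plus light 2, 3 or 5 was left out.

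Without injection, 3 of the 13 mitochondrial genes fell by edgeR, beside 10.6% of all genes. Mt-nd3, a complex I subunit, changed by -0.34 ± 0.10 (edgeR adjusted p = 0.0190) and had 358, 464 and 546 CPM (lowest, median, highest) in light damage, against 481, 545, 552, 582 and 696 CPM in control. Mt-co1, the catalytic subunit of complex IV, changed by -0.33 ± 0.10 (edgeR adjusted p = 0.0218) and had 21020, 25073 and 26129 CPM in light damage, against 23812, 27217, 30604, 35011 and 37583 CPM in control. Mt-co2, which receives the electrons from cytochrome c, changed by -0.28 ± 0.10 (edgeR adjusted p = 0.0399) and had 4005, 4853 and 5467 CPM in light damage, against 4860, 5178, 5546, 6313 and 7340 CPM in control. The ranges of all 3 genes overlap. Mt-nd1 lay on the other side of zero, with 2964, 3479 and 4058 CPM in light damage and 2263, 2914, 2936, 3165 and 3501 CPM in control, and did not pass (0.24 ± 0.11, edgeR adjusted p = 0.145). With only the light damage and control libraries in the fit edgeR called none of the 3, and with library size as the only scaling it called 1. Without control 4 none of the 3 was called, without control 1 only Mt-nd3 was, and Mt-co2 also lost its call without light damage 2, 4, 5 or 7.

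After vehicle and after nanoceria edgeR called none of the 13 mitochondrial genes with light, none had an unadjusted p under 0.05 in either state, and DESeq2 and limma-voom called none. Mt-nd3 was at -0.03 ± 0.11 after vehicle and at 0.19 ± 0.12 after nanoceria, and Mt-co1 at -0.11 ± 0.11 and -0.04 ± 0.12. The difference between the responses of Mt-nd3 after nanoceria and without injection was 0.52 ± 0.16 (edgeR interaction, unadjusted p = 0.00280, adjusted p = 0.160) and did not pass.

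As a share of all counts, the 13 mitochondrial genes took 6.56% ± 0.65 in light damage (SD, n = 7) and 7.00% ± 0.99 in control (n = 5). They took 6.95% ± 0.90 in vehicle plus light and 6.88% ± 0.60 in vehicle (n = 5 each), and 6.89% ± 0.43 in nanoceria plus light (n = 5) and 6.72% ± 0.47 in nanoceria (n = 4). Each of these differences was smaller than the SD of either group of its pair. The 94 nuclear members together took 0.841% ± 0.060 in light damage and 0.939% ± 0.075 in control, 0.809% ± 0.057 in vehicle plus light and 0.851% ± 0.052 in vehicle, and 0.845% ± 0.032 in nanoceria plus light and 0.904% ± 0.072 in nanoceria, so the light group was the lower one in each pair while its range overlapped that of its partner. PolyA selection affects mitochondrial and nuclear transcripts differently, so the shares of the 2 genomes are not compared with each other.

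**Figure D3:**
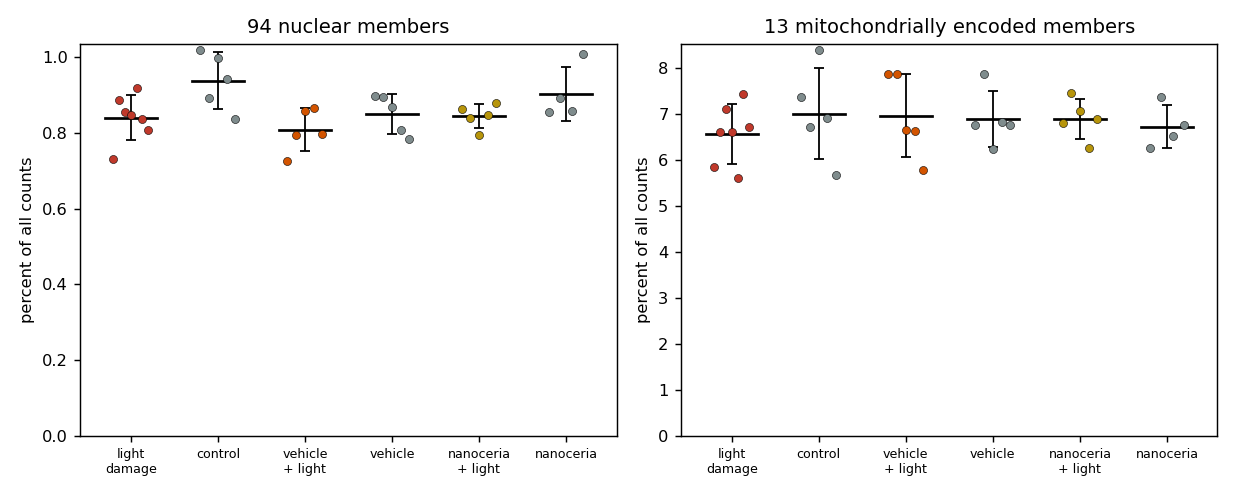
Percent of all counts taken by the 94 nuclear members (left) and the 13 mitochondrially encoded members (right), 1 point per library, with the group mean and SD. Nuclear shares average 0.841%, 0.809% and 0.845% in the 3 light groups and 0.939%, 0.851% and 0.904% in their partners without light, and mitochondrial shares average between 6.56% and 7.00% in all 6 groups.

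Taken separately, the injection states gave nuclear changes of the same direction but different numbers of calls. Without injection, 34 nuclear members fell and 2 rose in light damage against control (edgeR; 10.6% of all genes fell and 11.9% rose), with a median of -0.21. After vehicle, 7 fell and none rose (7.17% and 9.67% of all genes), with a median of -0.15: Ndufa4, Ndufb11, Ndufb9, Ndufb4, Ndufb6, Ndufa12 and Cox7c. After nanoceria, 1 fell and none rose (5.78% and 8.15% of all genes), with a median of -0.12, and that was Ndufa4. Counted without regard to the test, 69 of 87 nuclear members lay below zero in all 3 states and 5 above, and 4 and 2 of the 13 mitochondrial members. This was not counted over all genes, and signs of members from the same libraries are not independent.

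Ndufa4 changed by -0.58 ± 0.11 without injection, by -0.53 ± 0.13 after vehicle and by -0.46 ± 0.13 after nanoceria (edgeR adjusted p = 4.23e-04, 0.00339 and 0.0181). Ndufb11 was at -0.41 ± 0.09, -0.38 ± 0.10 and -0.30 ± 0.10 in the same order (edgeR adjusted p = 0.00121, 0.00755 and 0.0528), Ndufb6 at -0.37 ± 0.09, -0.31 ± 0.10 and -0.27 ± 0.10, and Atp5b at -0.33 ± 0.10, -0.26 ± 0.10 and -0.27 ± 0.11. Ndufa4 passed the test in all 3 states, Ndufb11 and Ndufb6 without injection and after vehicle, and Atp5b without injection. The call of Atp5b was lost without control 1, and that of Ndufb6 after vehicle when any of vehicle 1 to 3 or either of vehicle plus light 1 and 2 was left out. All light libraries lay below all no-light libraries for 2, 4 and 7 of the 87 nuclear members without injection, after vehicle and after nanoceria, shares near the 4.79%, 6.01% and 5.54% of all genes, and for none of the mitochondrial members.

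The counts of calls rested on single libraries and on the scaling. Without injection the 34 nuclear decreases became 15 with library size as the only scaling, 21 with the near-identical pairs summed and 54 with limma-voom. They became 10 without control 1, 12 without control 4, 21 without light damage 3, 19 without light damage 6 and 17 without light damage 7. After vehicle the 7 became 2 without vehicle 1, vehicle 3 or vehicle plus light 1, 3 without vehicle 2 or vehicle plus light 2, 13 without vehicle 7 and 21 without vehicle plus light 4. After nanoceria the single call of Ndufa4 was lost without nanoceria 5 (adjusted p 0.00326 to 0.131 over the alternatives, which include edgeR, DESeq2 and limma-voom fits). The count after nanoceria was 2 to 6 when control 1, 2, 4 or 6, light damage 1, vehicle 3 or 7, nanoceria 1 or 3, vehicle plus light 1 or 4, or nanoceria plus light 2 or 5 was left out, the highest without control 6. Averaged over the states, the 49 decreases became 45 to 62 when single libraries were left out and 51 with the near-identical pairs summed.

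**Figure D4:**
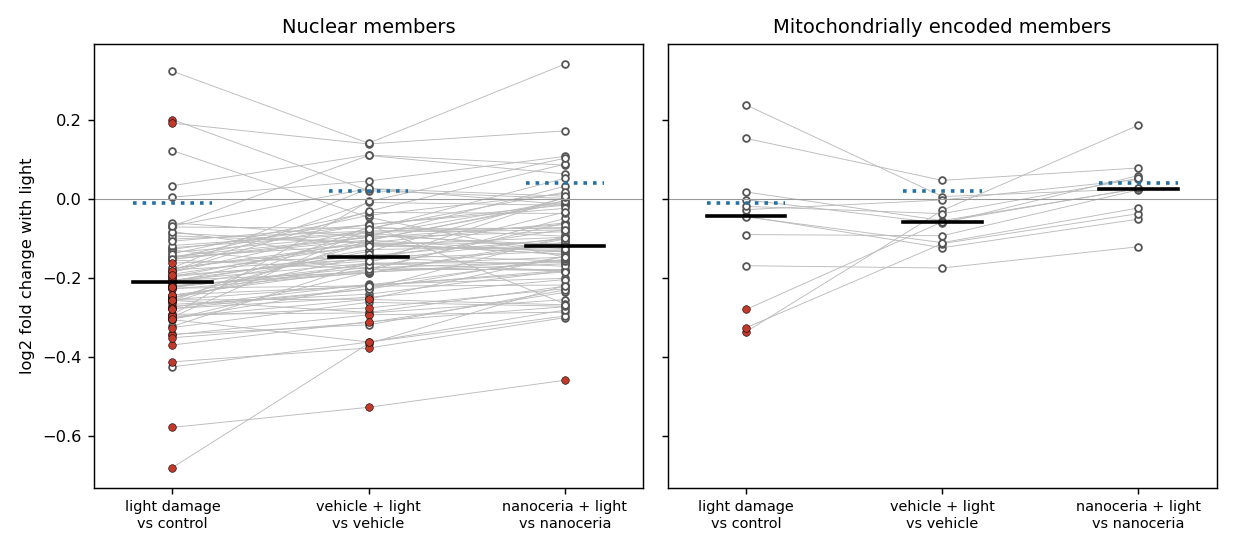
Log2 fold change with light in each injection state for nuclear members (left) and mitochondrially encoded members (right), joined by gene; filled points passed the edgeR test at an adjusted p under 0.05, black bars are medians of the members and dotted bars medians of all genes tested. Nuclear medians are -0.21, -0.15 and -0.12 in the 3 states; Ndufa10l1 and Cox7a1 lie outside the drawn range and are not drawn.

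Whether the light response itself differed between injection states was tested as an interaction, and no member passed in any of the 3 tests. The response after nanoceria minus that after vehicle had a nuclear median of 0.03, with no member called by edgeR, DESeq2 or limma-voom and none at an unadjusted p under 0.05 (edgeR called 0 of all genes). For Ndufa4 this difference was 0.07 ± 0.18 and for Mt-nd3 0.22 ± 0.17 (edgeR adjusted p = 1.00 for each). The response after vehicle minus that without injection had 2 members and the response after nanoceria minus that without injection 3 members at an unadjusted p under 0.05, again with none called by any of the 3 tools (edgeR called 0.0442% and 0.409% of all genes). These were Atp5sl and Ndufa10l1 in the first, and Mt-nd3, Atp5s and Ndufa10l1 in the second. The smaller numbers of calls after injection are therefore not shown to be a difference in response.

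Injection without light left no member past the test. In vehicle against control edgeR called none of the 100 members (0.0221% of all genes), 19 had an unadjusted p under 0.05, DESeq2 called none and limma-voom with library weights 44, but none of them once the near-identical pairs were summed. Y-linked transcripts were high (above 50 CPM) in 1 of 5 vehicle and 4 of 5 control libraries, and their part in this comparison was not tested beyond a fit with a term for sex, which also called 0 members. The nuclear median was -0.15, beside -0.15 for the light response after vehicle, while the mitochondrial median was 0.03. Below zero were 84 of 87 nuclear members, beside 10348 of all 18094 genes. The same libraries gave every member, so these signs are not independent. The smallest adjusted p were those of Atp5sl at -0.16 ± 0.05 and Atp5g3 at -0.29 ± 0.09 (edgeR adjusted p = 0.340 and 0.406). In nanoceria against control edgeR called no member (2.46% of all genes), 8 had an unadjusted p under 0.05, DESeq2 called 1 and limma-voom 2, and the nuclear median was -0.11. Both comparisons share the 5 control libraries, as does light damage against control.

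No member passed the test between nanoceria and vehicle. Without light, edgeR called none (0% of all genes), none had an unadjusted p under 0.05, DESeq2 called none and limma-voom 4, and the nuclear median was 0.04. With light, nanoceria plus light against vehicle plus light gave no call by edgeR (0% of all genes), DESeq2 or limma-voom and none at an unadjusted p under 0.05. The nuclear median was 0.08, and 83 of 87 nuclear members were above zero, beside 9125 of all 18094 genes. The same libraries gave every member, so these signs are not independent. The smallest unadjusted p was that of Ndufa5, 0.13 ± 0.08 (edgeR adjusted p = 1.00), and Ndufa4 was at 0.12 ± 0.12.

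Ndufa10l1, named as a copy of the complex I subunit Ndufa10, did not follow the other members. It was high in all controls and low in all light damage libraries: 0.380, 0.603 and 1.12 CPM (lowest, median, highest) in light damage, against 9.08, 9.79, 10.4, 10.7 and 12.2 CPM in control, a change of -3.97 ± 1.07 (edgeR adjusted p = 0.00718). In the injected groups it was high in some libraries and low in others with and without light, above 5 CPM in 2 of 5 vehicle plus light and 3 of 5 vehicle libraries, and in 2 of 5 nanoceria plus light and 2 of 4 nanoceria libraries. No library lay between 1.12 and 8.88 CPM, and the highest, nanoceria plus light 4, had 19.8 CPM. Averaged over the states it was at -1.38 ± 0.62 and did not pass (edgeR adjusted p = 0.0823).

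Ndufa10 itself rose without injection by 0.20 ± 0.07 (edgeR adjusted p = 0.0322), with 96.9, 102 and 109 CPM (lowest, median, highest) in light damage and 80.3, 85.6, 85.9, 92.8 and 98.1 CPM in control. The sum of both genes was 102 ± 4.05 CPM in light damage (n = 7) and 99.0 ± 7.07 CPM in control (SD, n = 5), a difference smaller than either SD. Reads may be shared between the copies, and how shared reads were counted is not given in the sources used here, so the split between both genes is uncertain. The call of Ndufa10 was lost without control 2, 5 or 6 or without light damage 6.

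**Figure D5:**
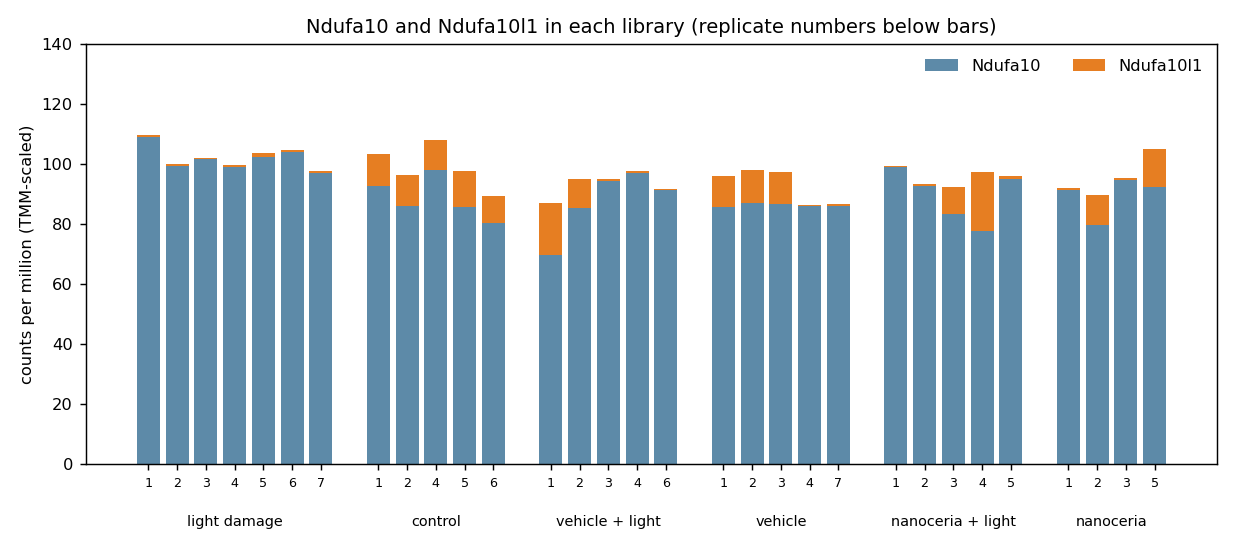
Stacked bars give the CPM of Ndufa10 and Ndufa10l1 in each library, with replicate numbers below. Ndufa10l1 is at most 1.12 CPM in all 7 light damage libraries and at least 9.08 CPM in all 5 control libraries, and takes either level in the injected groups.

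Genes that assemble, transcribe or feed the chain were called in both directions, and their counts stand beside the 16.6% of all genes that fell and the 20.5% that rose. Of the other assembly factors, 3 of 10 for complex I were lower, 1 of 4 for complex II, 2 of 6 for complex III, 8 of 22 for complex IV and 1 of 5 for complex V, with 2 for complex IV and 1 for complex V higher (edgeR, mean of the injection states). Aifm1, a flavoprotein needed for complex I biogenesis, changed by -0.30 ± 0.05, Sdhaf4 of complex II by -0.24 ± 0.06 and Uqcc3 of complex III by -0.21 ± 0.05. Cox15, which makes haem a for complex IV, changed by -0.28 ± 0.03 and Cmc1, a factor of its early assembly, by 0.77 ± 0.09 (edgeR adjusted p = 2.82e-08 and 1.39e-07). Fmc1, which helps to assemble complex V, changed by -0.22 ± 0.06.

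Of 28 factors of mitochondrial transcription and RNA handling 11 were higher and 2 lower, with a median of 0.06, and in light damage against control 3 were higher and 3 lower. Grsf1, which binds RNA in mitochondrial granules, changed by 0.51 ± 0.04, and Polg2, the accessory subunit of the mitochondrial DNA polymerase, by -1.22 ± 0.10 (edgeR adjusted p = 1.32e-10 and 1.70e-10). Of 74 genes of the mitochondrial ribosome 10 were higher and 12 lower, shares not above those of all genes, with Mrps27 at 0.52 ± 0.04 and Mrpl14 at -0.53 ± 0.06. Of 15 regulators of mitochondrial biogenesis 3 were higher and 6 lower: Esrrb, a nuclear receptor of rods, changed by -2.48 ± 0.24 and Pprc1, a coactivator, by 0.64 ± 0.06. Nrf1, whose core motif was counted in the promoters, changed by -0.15 ± 0.04 (edgeR adjusted p = 0.00122). The calls of Nrf1, Idh3a and Sdhaf4 ended with library size as the only scaling. In the citric acid cycle 4 of 16 genes were lower and none higher, with Pdhb of pyruvate dehydrogenase at -0.22 ± 0.04 and Idh3a of isocitrate dehydrogenase at -0.15 ± 0.04. Among carriers and outer membrane channels 5 of 16 were lower and 2 higher, with the aspartate-glutamate carrier Slc25a12 at -0.32 ± 0.05 and Vdac2 at -0.22 ± 0.04, and among uncoupling and alternative electron entry genes Coq7, an enzyme of ubiquinone synthesis, was the 1 of 11 that fell (-0.19 ± 0.04).

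Of the 107 members, 7 did not pass the filter and have no test. Cytochrome c, Cycs, had 0 counts in all 31 libraries, as did Cox6c-ps1. A count of 0 allows up to 3 counts, or 0.119 CPM in the smallest library, for counting error only. Since cytochrome c carries electrons in every respiring cell and the treatment of reads that match several places is not given in the sources used here, this 0 is a property of the counts and not a level of the transcript. Ndufs6 had at most 7 counts and Ndufa13, an essential subunit of complex I, at most 14 in any library, to which the same limit applies, and Ndufb4l1, Cox7b2 and Cox8c had at most 1. The 6 names left out for their added number, copies of Cox6b1, Uqcrb and Ndufv3, had up to 17456 counts in a library, so those subunits are measured in the file but not described here.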

How the data were processed

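PolyA RNA of whole retina was sequenced in 42 labelled samples, of which 31 were analysed here and 11 were not. The values are whole-number read counts per gene, as the authors deposited them in 1 table. Per the submitters' processing notes the build was rn6 and the tools were STAR 2.7.9a, Trimmomatic 0.39, Subread 2.0.1 with featureCounts, R 4.0 and DESeq2 1.30.1. Whether strand was used in counting, which annotation was used and how reads with several matches were handled is not stated there. The labels' groups were fitted together with edgeR 4.0.16 (R 4.3.3), TMM scaling, robust quasi-likelihood tests and Benjamini-Hochberg adjustment over the 18094 genes kept by filterByExpr (count minimum 10, total minimum 15), which left out 14529 genes. The light effect was tested per injection state and as the mean of the 3 states, together with injection contrasts and interactions, 11 contrasts in all. The replicates are labelled biological, and no label says which animals they came from, so p-values measure the spread between these samples. Alternatives were other scalings, no filter, DESeq2 1.42.0, limma 3.58.1 voom with library weights, a term for sex (read from Y-linked transcripts, high in 4 of 7 light damage, 4 of 5 control, 2 of 5 vehicle plus light, 1 of 5 vehicle, 3 of 5 nanoceria plus light and 2 of 4 nanoceria libraries), a replicate block, near-identical pairs summed, and leaving out each library. The code was tested on simulated counts.

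The members and lists were chosen with earlier results of these data known. Named genes are all mitochondrial members, per complex the 2 lowest and 2 highest called members with a mean log2 CPM of at least 1, the 5 smallest adjusted p in every other comparison, the isoforms, the complex II subunits, cytochromes c and c1, and 2 genes per pathway list. Other members and Nrf1 were named for their role after their values were seen. Counting intervals and floors cover counting error only. The value of 1 member is not reported here.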

Additional observations from a re-analysis of the deposited data

Results flagged for a closer look

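For 28 quantities, 26 members and the 2 shares of all counts, the library at either end of each group was compared with the others of its group (Dixon's gap at the 95% level). Of 168 groups 11 held such a library, and chance alone gives about 1 in 20 groups. The same libraries gave every quantity, so the flags are not independent and their number is not weighed against that rate.

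Nanoceria 5 was the highest of the 4 nanoceria libraries for 5 nuclear members. Its nuclear share of counts, 1.009% (others 0.856% to 0.892%), and its rod marker sum, 64845 CPM (others 42992 to 51524 CPM), were also the highest of the 4. These 5 flags are thus not separate events. It had 121 CPM of Ndufb11 (others 95 to 96.4), 75.2 CPM of Ndufb6 (others 56.6 to 58.7), 277 CPM of Sdha (others 248 to 253), 333 CPM of Cox4i1 (others 261 to 265) and 1533 CPM of Atp5b (others 1198 to 1230). It is also the library without which Ndufa4 was not called after nanoceria.

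Vehicle 2 was the highest vehicle library for 2 members, and the other libraries stood apart for 1 member each. Ndufaf6 had 9.15 CPM in vehicle 2 (others 5.32 to 5.76), Sdhb 98.0 CPM in nanoceria plus light 1 (others 88.1 to 89.9) and Cox7a1 0.528 CPM in control 5 (others 0.207 to 0.262). Mt-co1 was lowest in light damage 5 at 21020 CPM (others 24258 to 26129), Ndufa12 was lowest in vehicle plus light 1 at 40 CPM (others 47.4 to 48.5), and Mt-cox3 was highest in vehicle 2 at 9164 CPM (others 7492 to 7747).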

How the results depend on the processing

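The sign of no named member's called value turned under any alternative. Counts of nuclear members lower with light moved as follows from 49 for the mean of the states, 34 without injection, 7 after vehicle and 1 after nanoceria. Library size alone gave 30, 15 and 2 for the first 3, and 5, 3 and 1 higher members for the mean, vehicle and nanoceria. DESeq2 gave 14 after vehicle and 9 after nanoceria, its size factors 6 and scaling without Mt- genes 5 after nanoceria. Limma-voom gave 54 without injection and 5 after nanoceria, with 3 and 1 higher after vehicle and nanoceria, and called 44, 2 and 4 members in vehicle against control, nanoceria against control and nanoceria against vehicle, where DESeq2 called 1 in nanoceria against control. Near-identical pairs summed gave 21 without injection and a term for sex 3 after nanoceria. Mitochondrial members lower numbered 2 with DESeq2 or its size factors or with scaling made without Mt- genes for the mean (0 in edgeR), and without injection (3 in edgeR) 1 with library size alone and 0 with only the groups compared. The cause of these moves was not tested.

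The replicate numbers were not taken as pairs, since no label gives them a meaning and 23 of 60 same-numbered pairs correlated above 0.1 (-0.35 to 0.38, median 0.08, against -0.01 for other numbers). As a hint from the data that some are related, 12 of 31 libraries correlated best with their own number. With the replicate block, without injection 20 nuclear and 1 mitochondrial members were lower and 1 nuclear higher, and 1 nuclear member was higher after nanoceria.

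Leaving out single libraries gave 45 to 62 nuclear members lower and 2 to 3 higher for the mean, with 0 to 2 mitochondrial lower. Without injection it gave 10 to 46 lower, 1 to 3 higher and 0 to 3 mitochondrial lower, after vehicle 2 to 21 lower and 0 to 1 higher, and after nanoceria 0 to 6 lower and 0 to 1 higher. It gave 0 to 1 members in nanoceria against control. Depth limits Cox7a1, which had at most 0.528 CPM.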
